A study of Mus musculus with 6 samples.

Results

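S100 proteins are small calcium-binding proteins, and 8 of their genes (S100a1, S100a4, S100a6, S100a10, S100a11, S100a13, S100a14 and S100a16) were followed here. They were taken by name from the 24454 genes of the deposited table, and all 8 have a row and were among the 11524 genes tested. RNA came from Py2T, an epithelial cell line grown from a mouse mammary tumour. The PBS control line is labelled with 0 µM H2O2 and, like the H2O2 lines, with 4 months, while the treatment protocol calls it untreated. The C40 line had received 40 µM H2O2 and the I60 line 60 µM H2O2, each daily for 4 months. Each group has 2 libraries of total RNA, described as biological duplicates, of 48113692 to 60260520 reads per library. Whether the duplicates were kept apart during the 4 months is not known, so p-values reflect only how far the libraries of a group differ. A difference that arose between the lines without H2O2 cannot be told apart from an effect of H2O2. In bulk RNA, fewer cells that express a gene and less RNA per cell cannot be told apart either.

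An S100 protein is mostly a dimer, and each subunit carries a pair of EF-hands, the helix-loop-helix motif that holds calcium. Calcium opens a groove that grips partner proteins such as annexins and non-muscle myosin, so that most S100 proteins act as calcium-dependent adaptors rather than enzymes. Several are also released from cells and act on surface receptors. In epithelia S100a14, S100a16 and S100a11 are common, while S100a4 is widely used as a marker of fibroblasts and of motile, metastatic tumour cells.

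All 8 genes lie on chromosome 3 (mm10), in a tight group of 6 and a distant group of 2. The first runs from S100a1 (90511034 to 90514330, minus strand) through S100a13 (90514233 to 90524581), S100a14 (90526849 to 90528837), S100a16 (90537254 to 90543151) and S100a4 (90603770 to 90606045) to S100a6 (90612894 to 90614414). S100a11 (93520496 to 93526288) and S100a10 (93555117 to 93564645) follow after a gap of 2906 kb. S100a1 and S100a13 are read in opposite directions, and the annotated span of S100a13 begins inside S100a1, with 98 bases in common. The promoter table places the S100a13 start further on, at 90514435, outside S100a1. The sources used here do not give the strand setting of the counting, so reads in that overlap may belong to either gene.

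The RefSeq promoter table of GRCm38.p6 matched 6 of the 8 members, all but S100a14 and S100a10. Sequence is shown for S100a16, which was lower in both H2O2 lines, and for S100a11, which was lower in C40. The stretch between the S100a1 and S100a13 starts of the promoter table is also shown, since S100a1 was the member that rose. The table lists 2 starts for S100a16, of which the first is shown. The windows are the 250 bases before the first start of S100a16 (chr3:90537004-90537253, plus strand), those before S100a11 (chr3:93520246-93520495, plus strand) and the 104 bases between the other 2 starts (chr3:90514331-90514434, plus strand), which lie within the annotated span of S100a13. Letters run 5′ to 3′, and capitals mark matches to the 6 motifs named after the sequences.
S100a16: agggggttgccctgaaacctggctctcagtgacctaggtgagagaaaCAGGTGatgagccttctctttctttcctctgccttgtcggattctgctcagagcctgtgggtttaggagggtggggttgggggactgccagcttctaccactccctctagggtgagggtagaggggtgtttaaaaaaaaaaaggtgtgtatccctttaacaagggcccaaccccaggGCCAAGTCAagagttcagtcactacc
S100a11: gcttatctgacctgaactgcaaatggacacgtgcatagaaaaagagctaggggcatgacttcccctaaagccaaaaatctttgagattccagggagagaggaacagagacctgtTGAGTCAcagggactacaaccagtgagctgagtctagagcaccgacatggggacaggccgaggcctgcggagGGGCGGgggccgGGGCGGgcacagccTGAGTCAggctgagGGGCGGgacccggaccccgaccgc
S100a1-S100a13: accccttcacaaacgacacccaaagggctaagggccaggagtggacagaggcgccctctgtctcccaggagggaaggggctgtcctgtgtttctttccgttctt
The motifs, searched on both strands, were the E2-box CACCTG that Zeb and Snail factors bind, the Grainyhead-like site AACCNGGTT, the AP-1 site TGANTCA, the antioxidant response element core TGACNNNGC, the GC box GGGCGG and the TATA box TATAAA. No match overlapped another in the windows shown. The first S100a16 start held the E2-box at -203 and the antioxidant element core at -26 from the start (counted from the first base printed), each on the opposite strand. The second, at 90541146, held neither, and had the AP-1 site at -192 and the GC box at -30. S100a11 held the AP-1 site at -136 and -38 and the GC box at -64, -52 and -24. The stretch between S100a1 and S100a13 held 0 matches. Over 32851 promoter windows of 250 bases, the E2-box was present in 17.2%, the Grainyhead-like site in 0.240%, the AP-1 site in 6.75%, the antioxidant element core in 10.2%, the GC box in 32.7% and the TATA box in 12.4%. In the 104 bases before the start of the same promoters, those shares were 7.31% for the E2-box, 0.100% for the Grainyhead-like site, 2.87% for the AP-1 site, 5.00% for the antioxidant element core, 25.1% for the GC box and 5.69% for the TATA box.

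S100a14 and S100a16 were lower in both H2O2 lines than in PBS, and lower in I60 than in C40. S100a1 was higher in both lines. S100a11 was lower in C40, and S100a6, S100a10, S100a13 and S100a4 passed in no comparison. A change counts here as passing when limma's Benjamini-Hochberg adjusted p over all genes tested is below 0.05. In C40 against PBS, 1 member rose and 3 fell, where 11.2% of all genes tested rose, 9.02% fell and 20.2% passed in either direction. In I60 against PBS, 1 rose and 2 fell, beside 13.9%, 13.1% and 27.1% of all genes. In I60 against C40, 0 rose and 2 fell, beside 3.51%, 5.73% and 9.23%. Of those 0, limma also gave 0 at an unadjusted p under 0.05, as did edgeR and DESeq2 at their adjusted thresholds. The median log2 fold change of the 8 was -0.15, -0.07 and 0.13 in the 3 comparisons, beside -0.02, 0.00 and 0.02 over all genes tested.

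**Figure D1:**
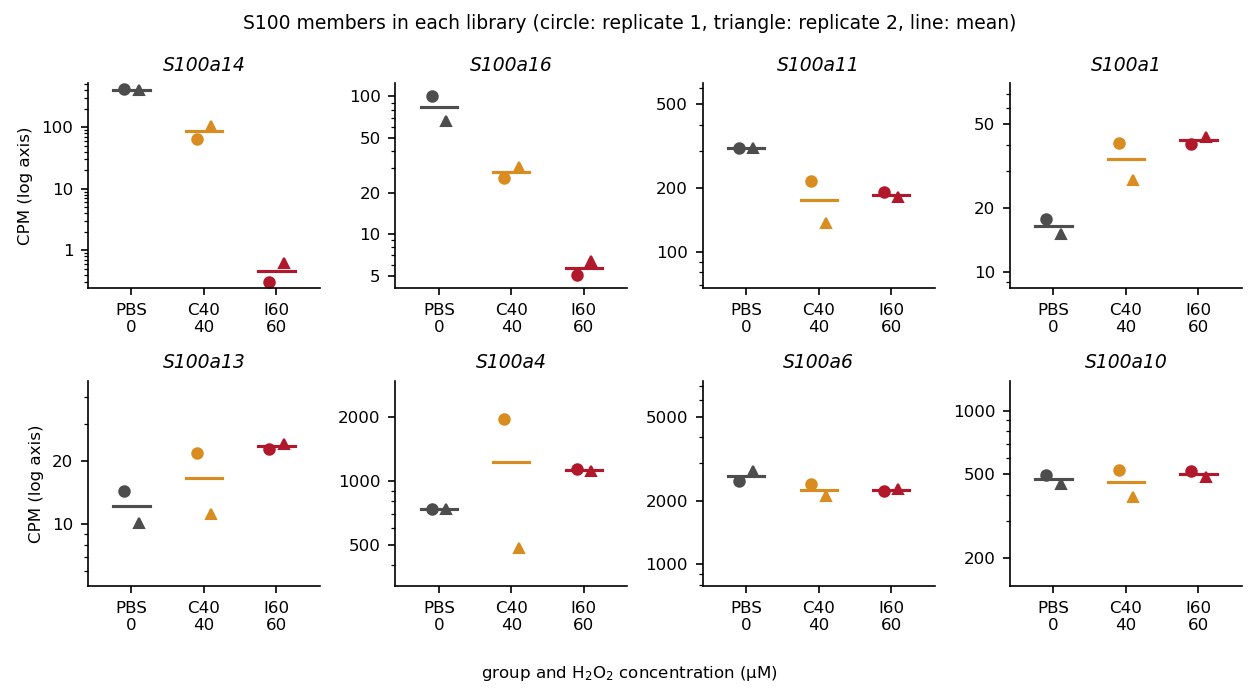
CPM (a gene's reads relative to all counted reads of its library, log axis) of each S100 member in the 6 libraries, by group and H2O2 concentration; circles are replicate 1, triangles replicate 2 and bars the mean. S100a14 and S100a16 step down from 0 to 40 to 60 µM, and the C40 libraries of S100a4 lie far apart at 1963 and 483 CPM.

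Levels between genes were compared per kb of transcript, as CPM per kb. S100a6 was the most abundant member in every group, with 3597 ± 285 CPM per kb in the control line, 3077 ± 294 in C40 and 3068 ± 50.9 in I60 (SD, n = 2). In PBS S100a6 was followed by S100a4 (1481 ± 3.65), S100a10 (693 ± 50.3), S100a11 (606 ± 1.02), S100a14 (389 ± 13.1), S100a16 (74.0 ± 21.0), S100a1 (24.4 ± 2.91) and S100a13 (17.1 ± 4.13), and the libraries of neighbours in this order did not overlap. In C40, S100a6 and S100a4 overlapped, as did S100a16 and S100a13. S100a14 held rank 5 in PBS and in C40 and rank 8 in I60. S100a1 went the other way, at rank 7 in PBS, 6 in C40 and 5 in I60, and S100a13 held rank 8 in PBS and C40 and 6 in I60. At 50.5 CPM per kb in C40 and 62.0 in I60, S100a1 stayed below the PBS levels of S100a16 and S100a14. Its rank therefore also depends on the falls of those genes.

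S100a14, an S100 protein of epithelia that in human cells has been tied to the receptor Ager and to p53, showed the steepest fall. It had 422 and 402 CPM in PBS, 65.1 and 106 CPM in C40, and 0.300 and 0.626 CPM in I60, the last from 16 and 34 reads. The 3 groups did not overlap, and I60 retained 0.112% of the mean PBS level, against 20.8% in C40. On the log2(CPM + 0.5) scale of the test, which understates folds of low values, C40 was 4.92-fold lower than PBS (log2 fold change -2.30, SE 0.29, adjusted p = 0.0021). I60 was 434-fold lower than PBS (-8.76, SE 0.29, adjusted p = 6.06e-06) and 88.2-fold lower than C40 (-6.46, SE 0.29, adjusted p = 0.000124). Each of these calls was kept with any 1 library left out and in the 9 other settings tried.

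S100a16, a broadly expressed relative whose human protein binds calcium through 1 of its EF-hands, fell in the same order but less far. It had 99.8 and 66.4 CPM in PBS, 25.6 and 30.6 CPM in C40, and 5.06 and 6.37 CPM in I60. No group overlapped another, and the PBS libraries differed more from each other than those of C40 or I60 did. The fall was 2.87-fold in C40 against PBS (log2 fold change -1.52, SE 0.27, adjusted p = 0.00836), and with PBS replicate 1 left out it did not pass (0.0868). It was 13.2-fold in I60 against PBS (-3.73, SE 0.27, adjusted p = 9.89e-05) and 4.61-fold in I60 against C40 (-2.21, SE 0.27, adjusted p = 0.00294), both kept with any library left out. Between S100a14 and S100a16 the annotation leaves 8.417 kb.

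Markers of the labelled cell type moved beside these falls. The keratins Krt8 and Krt18 passed in neither line, while Cdh1 (E-cadherin) and Epcam, both epithelial adhesion proteins, fell in both: Cdh1 to 13.8% of its PBS mean in C40 and 0.0297% in I60, and Epcam to 13.2% and 0.251%. The 12 epithelial markers summed to 7452 to 8257 CPM in PBS, 3776 to 3894 CPM in C40 and 3110 to 3168 CPM in I60, with Krt19 under 1 CPM in every library. Such sums weigh abundant genes most. Of the 11 tested, 8 fell in C40 and 9 in I60 against PBS, where 9.02% and 13.1% of all genes fell. In I60 against C40, 8 fell and Ocln rose (median log2 fold change -5.09), beside 5.73% and 3.51% of all genes. The 10 mesenchymal markers summed to 1210 to 1782 CPM in PBS, 9138 to 13496 CPM in C40 and 5843 to 7598 CPM in I60. Of these, 10 rose in C40 and 8 in I60 against PBS, where 11.2% and 13.9% of all genes rose. In I60 against C40 only Fn1 passed, as lower (median of the list -0.23). Of 7 fibroblast markers, Lum, Fap and Thy1 were at 0 in every library. Dcn and Pdgfra, the 2 tested, rose in C40 against PBS. Pdgfra also rose in I60, and Dcn was lower in I60 than in C40. The fibroblast list summed to 5.86 to 6.77 CPM in PBS, 31.4 to 46.6 in C40 and 11.6 to 19.8 in I60. All 5 endothelial markers and 8 of 10 immune markers stayed under 1 CPM in every library, with Adgre1, Mpo and Cd3e at 0. The immune list summed to 20.7 to 21.5 CPM in PBS, 6.55 to 10.4 in C40 and 30.9 to 39.6 in I60. Of its 2 tested genes, Csf1r fell in C40 and Cd68 rose in I60 against PBS, and both were higher in I60 than in C40. Of 6 Schwann cell and melanocyte markers 4 were under 1 CPM throughout, with Tyr at 0, and that list summed to 74.4 to 78.8 CPM in PBS, 21.4 to 37.9 in C40 and 2.68 to 3.37 in I60. The part of any of these cell types in the S100 values was not tested.

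S100a11, which binds annexin A1 and takes part in membrane repair and epithelial growth control, was lower by a smaller step. It had 309 and 310.2 CPM in PBS, 216 and 137 CPM in C40, and 192 and 182 CPM in I60. Every library of both H2O2 lines lay below both PBS libraries, and the I60 libraries lay between those of C40. C40 was 1.80-fold lower than PBS (log2 fold change -0.85, SE 0.23, adjusted p = 0.0397). That call was lost without PBS replicate 1 or 2, C40 replicate 2, or I60 replicate 1 or 2 (adjusted p from 0.0695 to 0.204), with no filter on low values (0.0742) and with only the C40 and PBS libraries in the model (0.0863). I60 was 1.66-fold lower (-0.73, SE 0.23), just short of the threshold at adjusted p = 0.0525. It did pass without C40 replicate 1 or 2 (0.00547 and 0.00524), with TMM scaling (0.0449), by DESeq2 (0.0211) and with only the I60 and PBS libraries (0.00536).

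S100a1, known from heart and skeletal muscle as a regulator of the ryanodine receptor and the sarcoplasmic calcium pump, was a low member that rose. It had 17.9 and 15.1 CPM in PBS, 41.0 and 27.3 CPM in C40, and 40.5 and 43.5 CPM in I60. Both H2O2 lines lay above PBS in every library, and the ranges of C40 and I60 met. The rise was 2.00-fold in C40 against PBS (SE 0.25 on the log2 scale, adjusted p = 0.0314). It passed with C40 replicate 2 left out (0.00865) and was lost with any other 1 library left out (0.0606 to 0.16), with no filter on low values (0.0533) and with only the libraries compared (0.0759). In I60 the rise was 2.50-fold (1.32, SE 0.25, adjusted p = 0.00811), lost without PBS replicate 2 or either I60 replicate (0.0546 to 0.0719).

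S100a13, a copper-binding member that helps to carry Fgf1 and Il1a out of cells, has 104 bases between its start in the promoter table and that of S100a1. It had 14.4 and 10.2 CPM in PBS, 21.9 and 11.2 CPM in C40, and 22.8 and 24.0 CPM in I60. The I60 libraries lay above all others, and 1 C40 library fell among those of PBS. Its log2 fold change was 0.36 in C40 against PBS (95% interval -0.46 to 1.18, adjusted p = 0.493) and 0.93 in I60 against PBS (0.10 to 1.75, adjusted p = 0.0934). The I60 value did pass without C40 replicate 1 or 2 (0.0218 and 0.0203), by DESeq2 (0.0368) and with only the I60 and PBS libraries (0.0209). Of its cargo genes, Fgf1 had 3 reads over both PBS libraries, 7 over those of C40 and 6 over those of I60. Il1a had 77, 153 and 0 reads, at least 23.5-fold lower in I60 than in PBS when 3 reads over both libraries are taken as the floor, although limma passed it in no comparison.

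S100a4, a partner of non-muscle myosin that promotes cell motility, had the widest gap between replicates of any member. It had 739 and 736 CPM in PBS, 1963 and 483 CPM in C40, and 1141 and 1119 CPM in I60. The PBS and I60 libraries were tight and apart from each other, while the C40 libraries lay on either side of both. Replicate 1 of C40 was 4.06 times replicate 2, and 124 of 11524 genes (1.08%) differed more between those libraries. The log2 fold change was 0.40 in C40 against PBS (95% interval -0.93 to 1.73, adjusted p = 0.65), 0.61 in I60 against PBS (-0.72 to 1.95, adjusted p = 0.461) and 0.21 in I60 against C40 (-1.12 to 1.55, adjusted p = 0.876). A single C40 library turned the values of both comparisons that involve C40. Without C40 replicate 1, C40 was lower than PBS (-0.61, adjusted p = 0.0381) and I60 higher than C40 (1.22, 0.00446). Without C40 replicate 2, C40 was higher than PBS (1.41, 0.00183) and I60 lower than C40 (-0.80, 0.0342). The log2 fold change of I60 against PBS stayed at 0.61 without C40 replicate 1 or 2. With only the I60 and PBS libraries in limma it passed (adjusted p = 0.0153). The main model shares 1 estimate of the spread over all 3 groups, C40 included.

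**Figure D2:**
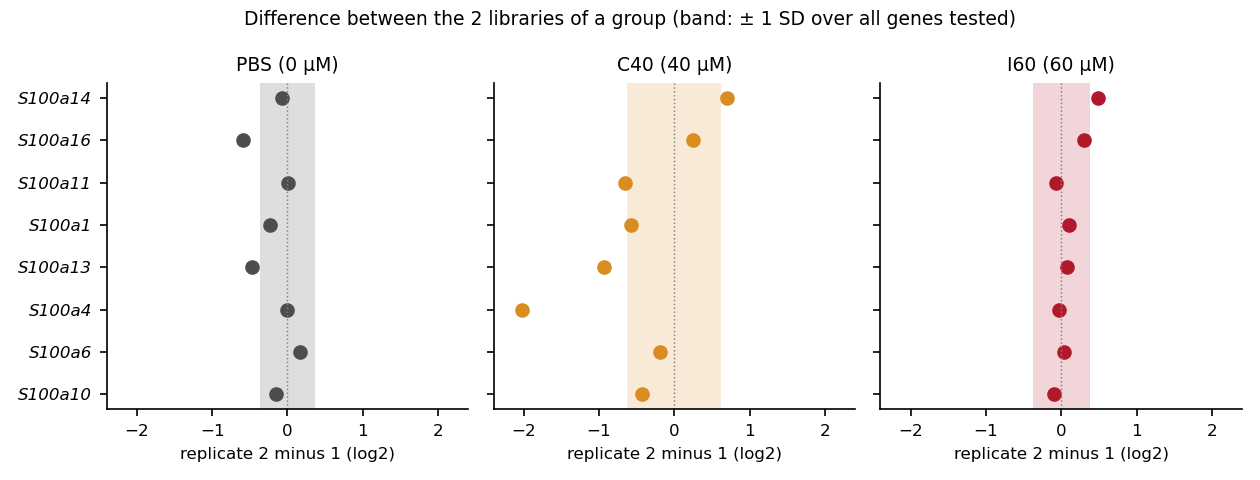
Replicate 2 minus replicate 1 of each S100 member on the log2(CPM + 0.5) scale, by group; the band is 1 SD of that difference over all genes tested (0.363 in PBS, 0.623 in C40 and 0.379 in I60). S100a4 in C40 lies at -2.02, while its PBS and I60 points are close to 0.

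In C40, S100a14 and S100a16 were higher in replicate 2, as were 10 of 11 epithelial markers tested, and the other 6 members were higher in replicate 1. The epithelial markers leaned the same way in PBS, where 9 of 11 were higher in replicate 2. There S100a6 and S100a11 were the members higher in replicate 2, S100a11 by a log2 difference of only 0.0034, while S100a14 and S100a16 were higher in replicate 1. In I60, 7 of 11 epithelial markers and 5 of 8 members were higher in replicate 2. Of the 10 mesenchymal markers, 5 were higher in replicate 2 in C40, 3 in PBS and 8 in I60. Across all genes, 1022 differed over 2-fold between the C40 libraries, against 223 in PBS and 217 in I60. The share of all genes higher in replicate 2 was not counted.

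S100a6 (calcyclin, a partner of Cacybp and of annexins) was nearly level. It had 2482 and 2777 CPM in PBS, 2401 and 2097 CPM in C40, and 2217 and 2269 CPM in I60. The H2O2 lines lay a little below both PBS libraries, and the log2 fold change was -0.23 in each (95% interval -0.66 to 0.21 in both), at adjusted p = 0.413 in C40 and 0.402 in I60. S100a10 (p11), the member that holds its active shape without calcium and pairs with annexin A2, had 499 and 450 CPM in PBS, 526 and 390 CPM in C40, and 516 and 485 CPM in I60. All 3 groups overlapped. Its log2 fold change was -0.06 in C40 (-0.51 to 0.38, adjusted p = 0.835) and 0.08 in I60 (-0.37 to 0.53, adjusted p = 0.794).

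**Figure D3:**
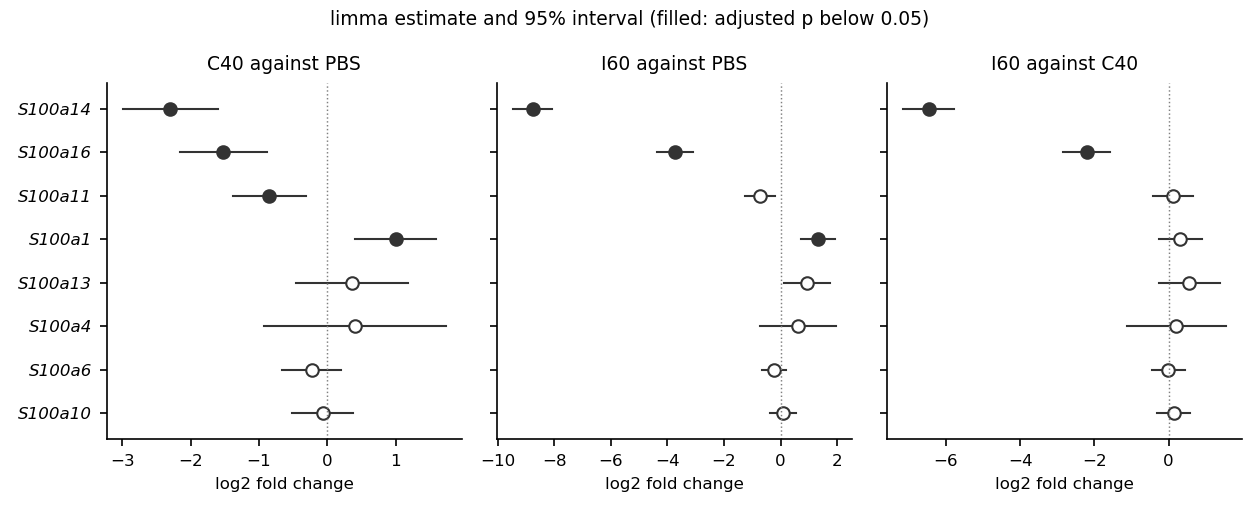
limma log2 fold change of each S100 member with its 95% interval in the 3 comparisons; filled points have an adjusted p below 0.05. S100a14 (-8.76) and S100a16 (-3.73) stand far left in I60 against PBS, and the interval of S100a4 spans 0 in every panel.

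Libraries of the 2 groups did not overlap for 5 of 8 members in C40 against PBS, 7 of 8 in I60 against PBS and 3 of 8 in I60 against C40. The same held for 62.7%, 70.6% and 48.8% of all genes tested.

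Along the chromosome the falls were not shared by every neighbour. The 6 other genes within 50 kb of a member and with at least 1 CPM in a library were Npr1, Ilf2, Snapin, Chtop, S100a3 and S100a7a. Of these S100a7a, a skin-type S100 gene 37.5 kb from S100a6, fell, and the other 5 passed in neither line. Of all genes tested, 9.02% fell in C40 and 13.1% in I60 against PBS, and 20.2% and 27.1% passed in either direction. With 6 genes, 1 fall cannot be set apart from those shares. S100a7a had 25.4 and 15.5 CPM in PBS, 4.45 and 4.54 CPM in C40, and 5.64 and 2.25 CPM in I60. Its log2 fold change was -2.03 in C40 against PBS (adjusted p = 0.0163) and -2.31 in I60 against PBS (0.00716). The C40 call was lost without PBS replicate 1 (0.14) or 2 (0.05) and the I60 call without PBS replicate 1 (0.0728).

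**Figure D4:**
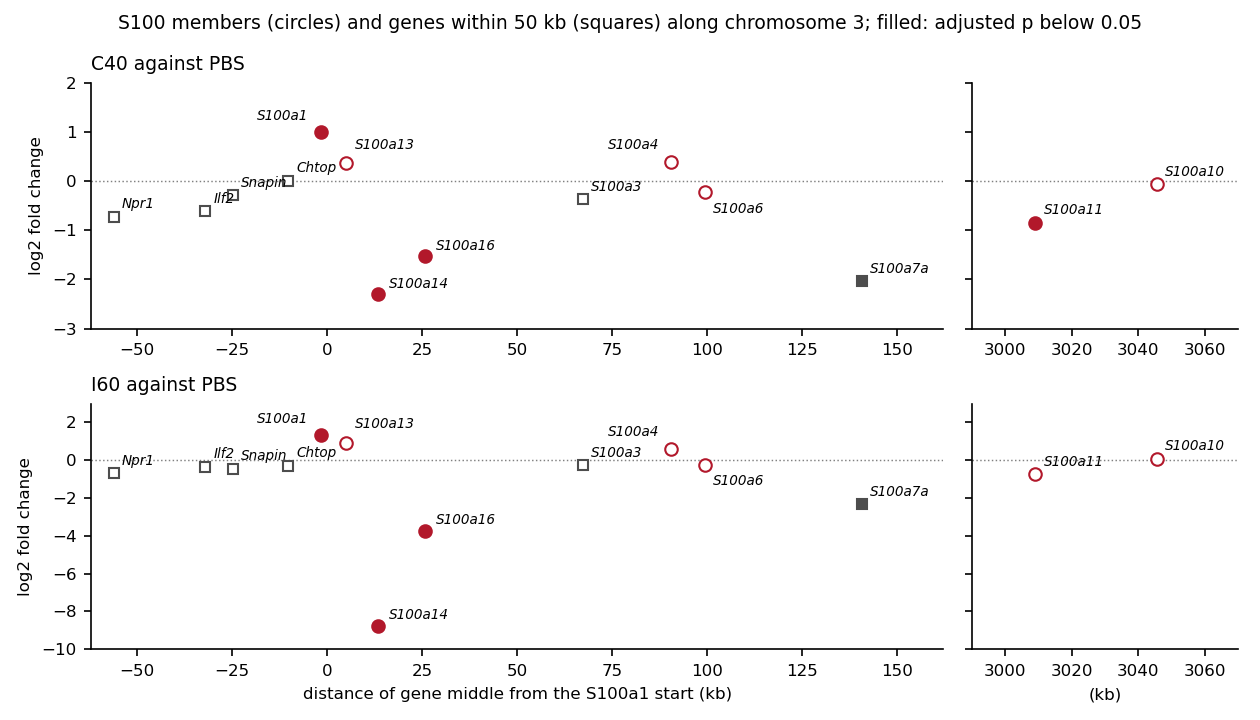
log2 fold change of the 8 S100 members (circles) and of 6 other genes within 50 kb (squares), by the distance of each gene's middle from the S100a1 start in kb; filled points have an adjusted p below 0.05. S100a14 and S100a16 lie between S100a13 and S100a4, which did not pass.

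Other S100 genes were low, apart from S100a7a in PBS (25.4 and 15.5 CPM). Of 10 with a row, S100a3, S100a7a and S100a8 could be tested. S100a3 had 7.77 and 7.33 CPM in PBS, 5.01 and 6.55 CPM in C40, and 6.85 and 5.77 CPM in I60. S100a8 had 4.10 and 2.07 CPM in PBS, 4.36 and 0.589 CPM in C40, and 1.82 and 2.39 CPM in I60. Neither gene passed. S100a2 had 32 and 18 reads in PBS, 3 and 5 in C40, and 8 and 4 in I60. S100a5 had 17 and 16 reads in PBS, 32 and 4 in C40, and 10 and 6 in I60. S100a9 had 45 and 5 reads in PBS, 5 and 0 in C40, and 0 in both I60 libraries. S100b had 0 reads in PBS, 3 and 1 in C40, and 4 and 3 in I60, and S100g, S100z and S100a7l2 had at most 2 reads in a library. Among 6 S100 fused-type genes, which join an S100 domain to a long repeat in skin and hair, Tchh (trichohyalin) was the 1 tested. Tchh fell to 2.02 ± 0.626 CPM in C40 and to 0.455 ± 0.0341 CPM in I60, against 10.3 ± 0.277 CPM in PBS (log2 fold change -2.12 and -3.50, adjusted p = 0.00188 and 0.000121). Crnn had 91 and 31 reads in PBS and 0 in the other 4 libraries.

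Some partners and receptors of S100 proteins rose and others fell. Of 32 listed genes 25 were tested: 3 rose and 5 fell in C40 against PBS (median log2 fold change -0.05), 4 rose and 6 fell in I60 against PBS (median -0.23), and 0 rose and 3 fell in I60 against C40 (median 0.04). That makes 32.0% of the list in C40, 40.0% in I60 and 12.0% between the lines, beside 20.2%, 27.1% and 9.23% of all genes tested. Myh9, the heavy chain of non-muscle myosin IIA and the best-known target of S100a4, averaged 2093 ± 418 CPM in C40 and 2004 ± 80.05 CPM in I60, against 1643 ± 23.8 CPM in PBS, and did not pass. Its relatives fell. Myh10 fell to 40.0 ± 3.66 CPM in C40 and to 13.6 ± 0.578 CPM in I60 (SD, n = 2), against 126 and 144 CPM in PBS. Myh14 fell to 27.8 and 17.7 CPM in C40 and to 8.90 and 6.76 CPM in I60, against 149 and 191 CPM in PBS. Mdm2, the ubiquitin ligase of p53, fell 14.3-fold in C40 and 12.0-fold in I60, and Trp53 (p53) rose 1.88-fold and 2.06-fold, though neither passed with PBS replicate 1 left out (0.106 and 0.0526). Dlc1, a GTPase-activating protein that binds S100a10, rose to 4.07 and 12.8 CPM in C40 and to 4.57 and 8.51 CPM in I60, against 0.368 and 0.398 CPM in the PBS libraries. The C40 call of Dlc1 was lost without PBS replicate 1 (0.0619) or 2 (0.0526), and the I60 call without PBS replicate 1 (0.0565) or I60 replicate 2 (0.0634). Htr1b, a serotonin receptor that binds S100a10, had 0 reads in PBS, 134 over both C40 libraries and 330 over both I60 libraries, at least 51.2-fold and 119.9-fold higher when PBS is set at a floor of 3 reads in all. The C40 call of Htr1b was lost without PBS replicate 1 (0.0837) or 2 (0.0693).

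Annexins are the main calcium-dependent partners at membranes. Anxa6 fell 1.93-fold in C40 (adjusted p = 0.0233, lost without PBS replicate 1 or 2 at 0.0812 and 0.146) and 5.63-fold in I60 (adjusted p = 0.00024). Anxa2, the S100a10 partner, averaged 1254 ± 99.1 CPM in I60 against 2257 ± 172 CPM in PBS (log2 fold change -0.85, adjusted p = 0.0216), a call lost without any 1 of these 4 libraries (0.0859 to 0.168), and it did not pass in C40 (-0.22, 0.476). Anxa1 and Anxa11 passed in neither line. The receptor Ager had 12 to 27 reads in a library and was not tested, and Tlr4 and Bsg passed in neither line.

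The S100a10 and annexin A2 complex binds plasminogen and its activators at the cell surface. Of 9 plasminogen genes 6 were tested. In C40 against PBS, 1 rose and 0 fell (median log2 fold change -0.57), where 20.2% of all genes passed in either direction. In I60 against PBS, 2 rose and 1 fell (median 0.11), beside 27.1%. In I60 against C40, 1 rose and 0 fell (median 0.10), beside 9.23%. Whether counts among so few genes differ from those shares was not tested. Both activators passed in I60 against PBS, in opposite directions, and neither passed in C40 against PBS. Plat (tissue activator) had 72.6 and 119 CPM in I60 against 29.3 and 20.6 CPM in PBS (adjusted p = 0.00963), lost without PBS replicate 2 (0.081) or I60 replicate 2 (0.0879). Plau (urokinase) had 169.5 and 269 CPM in I60 against 567 and 778 CPM in PBS (0.0343), a call lost without any 1 of those 4 libraries (0.0859 to 0.197).

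Against PBS, the shares of other EF-hand genes that passed were close to those of all genes. Of 38 listed genes 29 were tested: 3 rose and 4 fell in C40 against PBS (median log2 fold change -0.09), 2 rose and 6 fell in I60 against PBS (-0.28), and 1 rose and 5 fell in I60 against C40 (-0.12). These are 24.1%, 27.6% and 20.7% of the list, beside 20.2%, 27.1% and 9.23% of all genes tested. Gca (grancalcin) fell 4.84-fold in C40 and 8.38-fold in I60. Sri (sorcin) was 1.88-fold higher in C40, a call that did not hold without PBS replicate 1 (0.0642) or 2 (0.0713), and 1.99-fold higher in I60. Ncs1, another calcium sensor, had 152 and 168 CPM in C40 against 79.6 and 68.7 CPM in PBS, a call that did not hold without PBS replicate 1 (0.0547) or 2 (0.0771), and it did not pass in I60. Capns1, the small calpain subunit, rose 1.44-fold in C40, lost with any 1 library left out (0.0562 to 0.242), and Efhd2 fell 2.27-fold there, lost without PBS replicate 1 (0.116) or 2 (0.102). In I60, Tnnc1 (a troponin C) had 2.38 and 5.36 CPM against 0.158 and 0.199 CPM in PBS, lost without PBS replicate 1 (0.0513). Myl12b, a myosin regulatory light chain, fell 2.82-fold in I60 and 1.58-fold in C40, where the call was lost without PBS replicate 1 or 2, C40 replicate 2, or I60 replicate 1 or 2 (0.0755 to 0.19). Vsnl1 (a neuronal calcium sensor) had 341 reads over both PBS libraries, 1 over those of C40 and 0 over those of I60, at least 104.3-fold lower in I60 by the same floor.

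The genes whose profile over the 6 libraries was nearest to each member were found by the root-mean-square difference of centred log2(CPM + 0.5) values among 11089 genes. For S100a14 these were Esrp1, an epithelial splicing regulator (difference 0.229), and the surface protein gene Cdcp1 (0.335). Esrp1 had 217 and 266 CPM in PBS, 28.0 and 49.5 CPM in C40, and 1 read over both I60 libraries. For S100a16 the nearest was Pkp1, a desmosome plaque gene (0.138). Pkp1 had 303 and 224 CPM in PBS, 99.6 and 100.6 CPM in C40, and 21.7 and 22.2 CPM in I60. For S100a1 they were Golm1 (0.083) and Akr1b8 (0.0905), for S100a11 Baiap2 (0.0481) and Ube2t (0.0539), and for S100a13 Blnk (0.115) and Plec (0.126). For S100a4 they were Nadk2 (0.169) and Dpysl2 (0.187), which share its gap between the C40 libraries at 44.8 and 15.0 CPM and 47.9 and 14.5 CPM. For S100a6 they were Mnd1-ps (0.0283) and Ogfod3 (0.0304), and for S100a10 Lsm8 (0.0413) and Nfya (0.0476). Among the members themselves the nearest pair was S100a6 and S100a10 (0.171), followed by S100a1 and S100a13 (0.291). The difference is not scaled by a gene's own range, so nearly level genes lie close to each other. From lowest to highest library S100a6 spanned 0.405 and S100a10 0.430 on the log2 scale, against 1.49 for S100a1, 1.20 for S100a13 and 9.04 for S100a14.

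**Figure D5:**
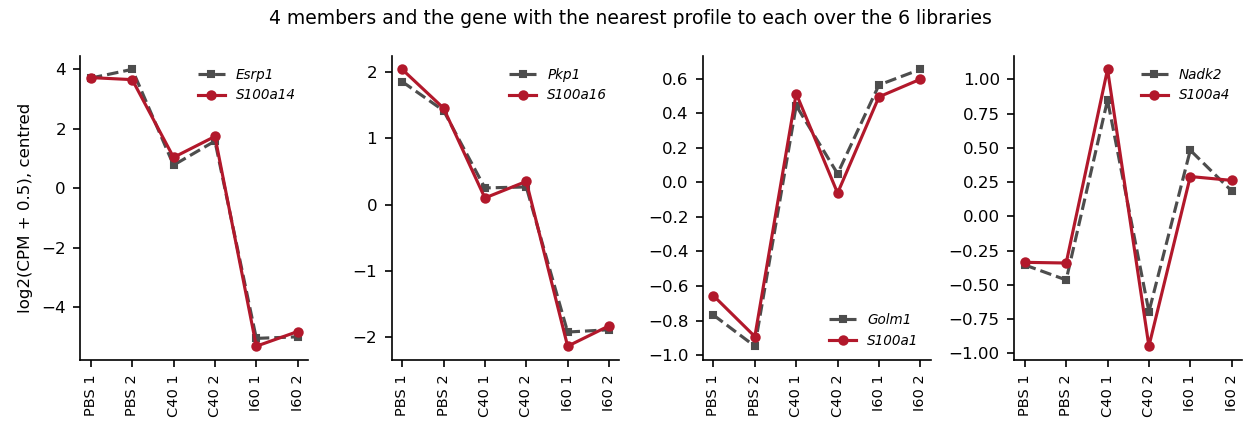
log2(CPM + 0.5), centred on each gene's mean over the 6 libraries, for S100a14, S100a16, S100a1 and S100a4 (circles, solid line) and the nearest gene of each (squares, broken line). S100a14 and Esrp1 fall together in I60, and S100a4 and Nadk2 share a peak in C40 replicate 1.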

How the data were processed

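Total RNA of 6 Py2T libraries was depleted of ribosomal RNA and sequenced as single reads, per the labels' protocols, which describe depletion with differing kits. STAR and the build mm10 are named in the submitters' processing notes; the sources used here name no counter, annotation or strand setting. CPM values, 1 row per Entrez gene, are as the authors computed and deposited them. Every value above 0 was a whole multiple of its library's smallest step within a tolerance of 0.01 (100.0% of values), which gave whole reads for edgeR and DESeq2. Symbols and coordinates came from RefSeq for GRCm38.p6 (24374 of 24454 rows), and transcript lengths from GENCODE.

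Genes reaching 1 CPM in at least 2 libraries were tested on log2(CPM + 0.5) with limma (version 3.58.1, R 4.3.3, trended, two-sided), a single model of 3 groups over all libraries, with Benjamini-Hochberg adjustment over the 11524 genes tested. The script was tested on simulated data. Genes at 0 reads in a group were set against a floor of 3 reads over that group. Floors cover counting error only. edgeR 4.0.16 found 2367 genes changed in C40 against PBS, 3110 in I60 against PBS and 1084 in I60 against C40 on the recovered reads.

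Named genes were all members, other S100 genes, the called list members with the 3 largest rises and falls, genes within 50 kb and the 2 nearest profiles per member; Myh9, Anxa2, Anxa6, Fgf1, Il1a, Crnn, Ager, Tlr4, Bsg, Anxa1 and Anxa11 were added as partners after their values were seen. Values of 2 of the named genes are not reported here. The members and lists were chosen with earlier results of these data known. Alternatives were other pseudocounts (0.1, 1), no filter or 5 CPM, TMM scaling, edgeR, DESeq2 (1.42.0), the libraries compared alone, a replicate block and each library left out.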

Additional observations from a re-analysis of the deposited data

Results flagged for a closer look

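For 2 members the change against PBS differed between the H2O2 lines by limma's test of I60 against C40. For S100a14 the log2 difference was -6.46 (adjusted p = 0.000124), with I60 at 0.300 and 0.626 CPM and C40 at 65.1 and 106 CPM. For S100a16 it was -2.21 (adjusted p = 0.00294), with I60 at 5.06 and 6.37 CPM and C40 at 25.6 and 30.6 CPM. With 2 libraries per group no library could be tested for standing apart from its group.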

How the results depend on the processing

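Over the 8 members and 3 comparisons, 316 of 360 alternative results kept their direction and their side of the threshold, 18 lost a call, 15 gained one and 11 changed sign. Past the threshold after the change were S100a4 in C40 against PBS without C40 replicate 1 (-0.61) and in I60 against C40 without C40 replicate 2 (-0.80); without the other C40 library these were 1.41 and 1.22, and the replicates themselves differ 4.06-fold. The other 9 passed neither before nor after: in C40 against PBS, S100a10 without PBS replicate 1 (0.0091) or C40 replicate 2 (0.15) and S100a13 without C40 replicate 1 (-0.11); in I60 against C40, S100a4 by edgeR (-0.10) and DESeq2 (-0.11), S100a6 without C40 replicate 1 (0.097) or I60 replicate 1 (0.016), and S100a10 (-0.073) and S100a11 (-0.21) without C40 replicate 2. With the other C40 library left out instead, C40 against PBS gave -0.28 for S100a10 and 0.83 for S100a13, and I60 against C40 gave 0.36 for S100a10 and 0.45 for S100a11. In C40 against PBS, 0 members rose with no filter on low values and 0 with only the libraries compared. In I60 against PBS, 2 rose by DESeq2 and 3 with only the libraries compared. Over all genes, 1064 fell in I60 against C40 by DESeq2 and 418 with only the libraries compared, against 660. The cause was not tested.

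With 1 library left out, the group it leaves has a lone sample that is assumed to vary like the others. Members that rose then numbered 0 to 2 in C40 against PBS, 0 to 3 in I60 against PBS and 0 to 1 in I60 against C40; those that fell numbered 1 to 4, 2 to 3 and 2 to 3. Over all genes 549 to 1717 rose and 425 to 1750 fell in C40 against PBS, 756 to 2120 and 740 to 2070 in I60 against PBS, and 140 to 832 and 249 to 937 in I60 against C40. Same-numbered libraries correlated in their deviations from the group means (r = 0.154 for PBS and C40, 0.105 for PBS and I60, 0.438 for C40 and I60). What they share beyond a number is not known here, and 2 pairs per comparison are too few to test it. With the replicate block, all genes that rose and fell numbered 1552 and 1301 in C40 against PBS, 1786 and 1708 in I60 against PBS, and 472 and 781 in I60 against C40. With it, 1 member rose and 3 fell in C40 against PBS, 1 rose and 3 fell in I60 against PBS (S100a11 passed, adjusted p = 0.034), and 0 rose and 2 fell in I60 against C40. Every call rests on 2 libraries per group, and the C40 libraries differ most from each other (SD of the log2 difference 0.623, against 0.363 in PBS).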
